A study of Homo sapiens with 15 samples.

Results

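The 9 genes described here are FLI1, NFE2, GP1BB, GP9, PF4, PPBP, TUBB1, VWF and TFPI, a list of megakaryocyte and platelet genes that was followed through the RNA-seq libraries of K562 cells. They were chosen by symbol, and a gene passed where its log2 CPM (CPM, counts scaled to the library total) was -1 or more in at least 3 libraries of a table. In this way 5 of the 9 genes passed in at least 1 table. The knockout table listed 5 of the 9, of which NFE2, TUBB1 and TFPI passed, among 17039 genes that passed of 17769 listed. The resistance table listed all 9, of which NFE2, PPBP, TUBB1, VWF and TFPI passed, among 16503 of 60510. GP1BB, GP9, PF4 and VWF had no entry in the knockout table, and the filter behind that table is not stated.

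Megakaryocytes are the large bone marrow cells that shed platelets. FLI1, an ETS family factor, and NFE2, the large subunit of the NF-E2 factor, switch on their late genes. GP1BB and GP9 encode chains of the platelet receptor for von Willebrand factor, which VWF encodes and which megakaryocytes and endothelial cells store. PF4 and PPBP encode chemokines kept in platelet alpha granules, TUBB1 encodes the tubulin of the platelet microtubule ring, and TFPI encodes an inhibitor of the tissue factor pathway of clotting that endothelial cells and platelets also make. K562 is a BCR-ABL1+ line from chronic myeloid leukemia that can take on erythroid or megakaryocytic features when treated with inducers.

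All 15 libraries came from K562 cells, in 5 groups of 3 replicates. The knockout table held cells with an empty vector (EV), cells with a knockout of HSP90AA1 (HSP90α-KO) and cells with a knockout of HSP90AB1 (HSP90β-KO), made with lentiviral Cas9 and guide RNA, sorted by a fluorescent marker and grown from selected clones. The resistance table held parental cells kept in DMSO and cells made resistant to the HSP90 inhibitor PU-H71 by rising doses (PUHr), again with selection of clones. The labels do not give the number of clones in a group, so clone and knockout, and clone and resistance, cannot be told apart. HSP90AA1 had 15069, 14161 and 18708 reads in EV and 1897, 1698 and 1768 in HSP90α-KO, a log2 fold change of -2.96 (SE 0.029, adjusted p = 2.6e-30). HSP90AB1 had 59375, 57731 and 73777 reads in EV and 40666, 44747 and 47724 in HSP90β-KO, a log2 fold change of -0.55 (SE 0.025, adjusted p = 1.3e-15). Both labels thus matched a lower level of the named transcript, while most HSP90AB1 reads were still present in HSP90β-KO. In PUHr HSP90AA1 was at -0.13 (adjusted p = 4.7e-05) and HSP90AB1 at -0.24 (adjusted p = 1.9e-07).

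Reads on the listed genes ranged from 19594381 to 26216730 per library in the knockout table and from 21584840 to 24477692 in the resistance table. At this depth 3 reads in a library, taken as the floor, stood for 0.114 to 0.155 CPM. The 2 tables were normalized separately by the authors, so levels are compared within a table only. The chi-square per degree of freedom between replicates of a group, 1 for counting error alone, ran from 1.15 to 4.21. The highest values, 4.21 and 3.2, were those of PUHr replicate 2 against the other PUHr libraries, which gave 1.57 against each other. Values without that library are given beside the members it bears on; without it 2 members and 1692 of all tested genes were changed.

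Per kilobase of annotated exon, the list was dominated by NFE2 and TFPI. The length joins all annotated exons of a gene, 11.7 kb for TFPI and 2.36 kb for NFE2, and the order of these genes rests on it. In CPM alone TFPI was above NFE2 in every group, at 669 against 145 in EV. In EV, NFE2 stood at 61.3 ± 2.45 CPM per kb and TFPI at 57.1 ± 1.99 (SD, n = 3), with overlapping libraries, whereas TUBB1 was at 0.404 ± 0.0406 and PPBP at 0.0855 ± 0.0765. In HSP90α-KO the order turned, with TFPI at 46.9 ± 2.1 and NFE2 at 39.1 ± 1.4 without overlap, and in HSP90β-KO NFE2 was at 56.7 ± 1.76 and TFPI at 26 ± 0.321. In parental cells the order was NFE2 (109 ± 2.21 CPM per kb), TFPI (33.4 ± 0.37), TUBB1 (1.26 ± 0.0857) and PPBP (0.227 ± 0.149), and FLI1, VWF, GP9, PF4 and GP1BB lay between 0.02 and 0 CPM per kb with overlapping libraries among the first 4. In PUHr it was NFE2 (88.4 ± 3.27), TFPI (36.3 ± 0.222), PPBP (0.957 ± 0.0857), TUBB1 (0.818 ± 0.101) and VWF (0.12 ± 0.0138), and the libraries of PPBP and TUBB1 overlapped. FLI1 was thus at or near the floor in both tables. The counts of GP1BB and GP9 were so in the resistance table, the only table that listed them. The log2 CPM of each member by library is plotted by group.

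**Figure D1:**
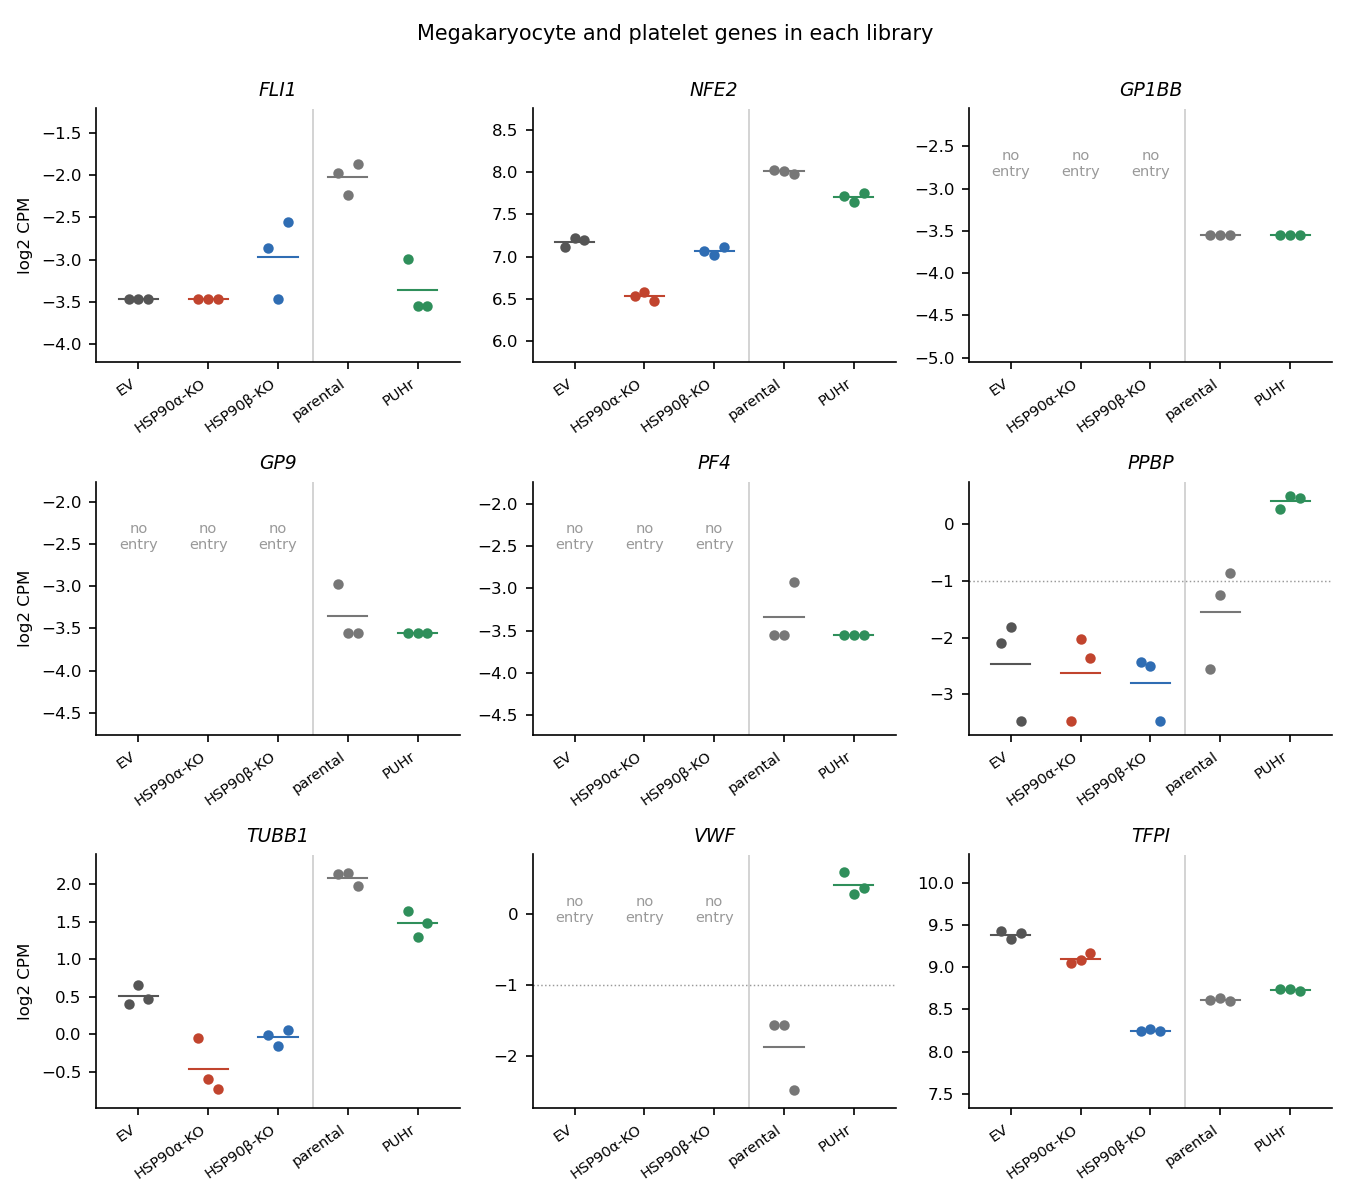
Log2 CPM of the 9 members in each library (points, 3 per group) with the group mean (line), knockout table to the left and resistance table to the right of the vertical line, each panel with its own axis. The dotted line is the limit of -1 for testing where it falls in a panel, and GP1BB, GP9, PF4 and VWF have no entry in the knockout table.

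Loss of HSP90α came with lower levels of all 3 members that could be tested, the factor NFE2, the tubulin TUBB1 and the inhibitor TFPI, each by less than the fold threshold. A gene is called changed here at an adjusted p under 0.05 with a log2 fold change above 1 or below -1. By this rule limma called 0 of 3 members, beside 5.32% of all tested genes that were changed upward and 5.01% that were changed downward. All 3 members had an unadjusted p under 0.05, voom on the whole reads called 1 of them (TUBB1), and by the adjusted p alone 3 of 3 were lower, beside 26.6% of all tested genes.

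Loss of HSP90β came with a larger fall of TFPI, with 1 of 3 members changed downward, beside 2.65% of all tested genes, and 0 changed upward, beside 1.83%. By the adjusted p alone 2 of 3 members (NFE2 and TFPI) were lower, beside 17.2% of all tested genes. The knockouts share the EV libraries, so they were also compared with each other. In that contrast limma called 0 of 3 members, beside 12.7% of all tested genes, while by the adjusted p alone 2 of 3 differed (the count at an unadjusted p under 0.05 was also 2, and voom called 0), beside 59.9% of all tested genes.

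PU-H71 resistant cells had more PPBP and VWF reads than parental cells, less TUBB1 and NFE2, and slightly more TFPI. Of the 5 members tested, 2 were changed upward, beside 5.37% of all tested genes, and 0 downward, beside 4.69%. Voom called the same numbers, 2 upward and 0 downward. By the adjusted p alone 5 of 5 differed, beside 51.4% of all tested genes. PPBP and VWF passed the filter only through PUHr, the group in which they were high (they would not have passed without it), so that a difference was built into their testing and their count is no result about the list. P-values here measure the spread between these libraries only, and in bulk RNA fewer cells with a transcript and less of it per cell cannot be told apart.

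**Figure D2:**
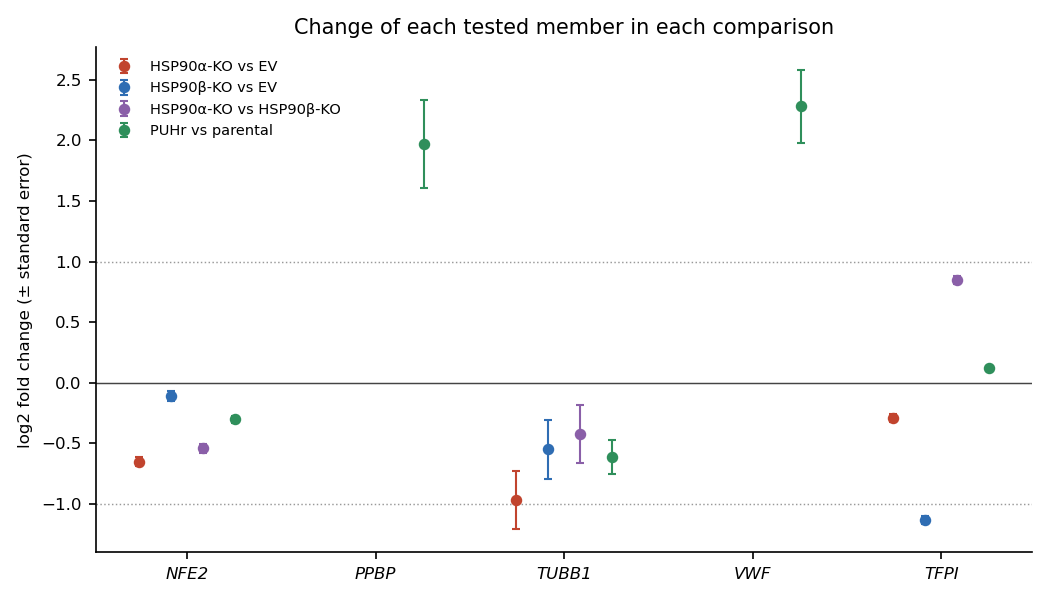
Log2 fold change of each tested member (points) with its standard error (bars) in the 4 comparisons, with dotted lines at -1 and 1. TFPI in HSP90β-KO (-1.13) and PPBP (1.97) and VWF (2.28) in PUHr lie beyond the dotted lines, while PPBP and VWF were not tested in the knockout table.

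NFE2 (ENSG00000123405, chromosome 12, 54292111 to 54301015, minus strand, GRCh38) partners with small MAF proteins and is also expressed in erythroid cells. Its log2 CPM was 7.11, 7.22 and 7.20 in EV, 6.54, 6.58 and 6.48 in HSP90α-KO and 7.07, 7.02 and 7.11 in HSP90β-KO. The 3 HSP90α-KO libraries lay below all others, and the HSP90β-KO libraries lay just under EV without overlap, although the nearest pair both round to 7.11. In CPM the level was 145 ± 5.78 in EV, 92.4 ± 3.3 in HSP90α-KO and 134 ± 4.16 in HSP90β-KO (SD, n = 3). The log2 fold change was -0.65 in HSP90α-KO (SE 0.038, adjusted p = 5.7e-14) and -0.11 in HSP90β-KO (SE 0.038, adjusted p = 0.022), and the knockouts differed by -0.54 (adjusted p = 2e-12). The small difference in HSP90β-KO rested on single libraries, since its adjusted p was 0.088 without EV replicate 2, 0.097 without EV replicate 3, 0.061 without HSP90β-KO replicate 1 and 0.13 without HSP90β-KO replicate 2, within a range of 0.0064 to 0.13 over the libraries left out and 0.0018 to 0.12 over the other alternatives (0.12 without the intensity trend).

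In the resistance table NFE2 stood at 8.03, 8.02 and 7.98 in parental cells and at 7.72, 7.65 and 7.75 in PUHr, with the groups apart. The log2 fold change was -0.30 (SE 0.029, adjusted p = 6.8e-07), from 258 ± 5.22 to 209 ± 7.73 CPM (SD, n = 3), and -0.27 without PUHr replicate 2. Of its partners, MAFG was at -0.38 in HSP90α-KO (adjusted p = 5.3e-09), 0.07 in HSP90β-KO (adjusted p = 0.18) and 0.00 in PUHr (adjusted p = 0.98). MAFK was at 0.05 (adjusted p = 0.64), 0.40 (adjusted p = 0.00018) and -0.07 (adjusted p = 0.47), and MAFF at -0.25 (adjusted p = 0.059), -0.27 (adjusted p = 0.056) and 0.15 (adjusted p = 0.22). A long noncoding gene on the opposite strand of NFE2, ENSG00000258344, held 18 to 44 reads per library in the resistance table and 22 to 51 in the knockout table, against 1733 or more for NFE2.

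FLI1 (ENSG00000151702, chromosome 11, 128686535 to 128813267, plus strand) was close to silent. It had 0 reads in every EV and HSP90α-KO library and 1, 0 and 2 reads in HSP90β-KO. Parental cells had 4, 3 and 4 reads and PUHr 1, 0 and 0. The reads of the resistance table give a ratio of 11.4 in favour of parental cells, with an exact 95% counting interval of 1.66 to 490. The groups did not overlap, but both lay near the floor and the gene did not pass the filter. Its neighbour ETS1, another ETS factor, fell in HSP90α-KO (log2 fold change -4.61, SE 0.14, adjusted p = 5.2e-20) and stood at -0.90 in HSP90β-KO (adjusted p = 1.1e-05). In PUHr ETS1 was at -0.44 (SE 0.11, adjusted p = 0.0038).

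The receptor genes gave no signal. GP1BB (ENSG00000203618, chromosome 22, 19723539 to 19724771, plus strand) had 0 reads in all 6 libraries of the resistance table, and GP9 (ENSG00000169704, chromosome 3, 129060779 to 129062406, plus strand) had 1 read in parental replicate 1 and 0 in the others. GP1BB overlaps SEPTIN5 and a second gene, ENSG00000284874, on its own strand, and reads in shared stretches may be assigned to neither gene, so a count of 0 does not show that GP1BB was silent. SEPTIN5 had 215, 249 and 203 reads in parental cells and 318, 423 and 331 in PUHr (log2 fold change 0.62, SE 0.1, adjusted p = 0.00013), and ENSG00000284874 had 55, 59 and 36 against 103, 111 and 83. As a list of 4 genes that overlap or resemble members (SEPTIN5, TUBB2A, TUBB2B and the untested PF4V1), 0 of 3 tested were changed in any comparison. Over all tested genes, 1760 of 17039 were changed in HSP90α-KO, 764 in HSP90β-KO, 2166 between the knockouts and 1660 of 16503 in PUHr. By the adjusted p alone these numbers were 9230, 5864, 10201 and 8480. By that rule 1 of the 3 was higher and 2 lower in HSP90α-KO and between the knockouts. In HSP90β-KO and in PUHr 2 were higher and 0 lower. The medians were -0.34 in HSP90α-KO, 0.27 in HSP90β-KO, -0.66 between the knockouts and 0.30 in PUHr. Both genes that overlap GP1BB were higher in all 3 PUHr libraries than in any parental library.

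Among the granule genes, PF4 (ENSG00000163737, chromosome 4, 73980811 to 73982027, minus strand) had 1 read in parental replicate 3 and 0 in the other 5 libraries, while its neighbour PPBP was measurable. PPBP (ENSG00000163736, chromosome 4, 73986439 to 73988190, minus strand) encodes the precursor of CXCL7. It had 2, 8 and 10 reads in the parental libraries and 28, 32 and 29 in PUHr, or log2 CPM of -2.55, -1.25 and -0.85 against 0.28, 0.51 and 0.46. All 3 PUHr libraries were high and the parental libraries were low and uneven, with replicate 1 the lowest. The log2 fold change was 1.97 (SE 0.36, adjusted p = 0.00037), and the read ratio was 4.3 with an exact 95% counting interval of 2.62 to 7.37. Without PUHr replicate 2 the log2 fold change was 1.92 and without parental replicate 1 it was 1.46, both still called. With so few reads its size depended on the pseudocount, 0.81 with 1 CPM added and 0.24 with 5 CPM, and with no filter on low values the adjusted p was 0.093 (range over the alternatives other than libraries left out 4.7e-05 to 0.093).

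In the knockout table PPBP did not pass, with 3, 4 and 0 reads in EV, 0, 3 and 2 in HSP90α-KO and 2, 2 and 0 in HSP90β-KO, a spread in which the groups overlapped. The tested chemokine genes beside it did not move with PPBP in PUHr: CXCL8 had a log2 fold change of -0.76 (adjusted p = 2.4e-06), CXCL3 of -0.16 (adjusted p = 0.55) and CXCL2 of -0.32 (adjusted p = 0.27). The annotation also holds a gene that spans PF4 and PPBP, ENSG00000288796, without an entry in either table.

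VWF (ENSG00000110799, chromosome 12, 5948877 to 6124770, minus strand) had 6, 6 and 2 reads in parental cells and 35, 27 and 27 in PUHr, or log2 CPM of -1.56, -1.57 and -2.48 against 0.58, 0.28 and 0.36. Every PUHr library lay above every parental library. The log2 fold change was 2.28 (SE 0.3, adjusted p = 1.4e-05), 2.34 without PUHr replicate 2, and the read ratio was 6.14 with an exact 95% counting interval of 3.47 to 11.7. It was 0.91 with 1 CPM added and 0.26 with 5 CPM, below the fold threshold. At 1.25 ± 0.144 CPM (SD, n = 3) over a long transcript, VWF reached 0.12 CPM per kb in PUHr, far under TFPI and NFE2.

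VWF is also an endothelial gene, and some endothelial markers differed in PUHr. Of 12 listed markers 5 were tested, of which 3 rose, beside 5.37% of all tested genes. These were ESAM (18, 24 and 27 reads against 917, 930 and 827, log2 fold change 5.12), KDR (2, 3 and 3 against 36, 43 and 37, log2 fold change 3.09) and PLVAP (12, 8 and 9 against 43, 32 and 34, log2 fold change 1.67). KDR and PLVAP passed the filter only through PUHr, so their rises were built into their testing and the count and the list median (1.67 beside 0.00 over all tested genes) are no result about the list. TIE1 was at 0.01 (adjusted p = 0.99), and the untested MMRN2 had 3, 2 and 8 reads in parental cells against 0, 1 and 1 (read ratio 0.149, exact 95% counting interval 0.0163 to 0.656). The summed level of the 12 was 131, 139 and 127 CPM in parental cells and 233, 288 and 251 in PUHr, of which EGFL7 made up 98% and 83.7%. CDH5, ROBO4, ECSCR and EMCN were at 0 reads in all 6 libraries. Their part in the VWF result was not tested.

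TUBB1 (ENSG00000101162, chromosome 20, 59019429 to 59026654, plus strand) was detected with few reads. It had 26, 31 and 34 reads in EV, 18, 11 and 10 in HSP90α-KO and 19, 19 and 24 in HSP90β-KO. In log2 CPM these were 0.41, 0.66 and 0.47 in EV, -0.05, -0.60 and -0.73 in HSP90α-KO and -0.01, -0.15 and 0.06 in HSP90β-KO. Every knockout library lay below every EV library, and the 2 knockouts overlapped. The log2 fold change was -0.97 in HSP90α-KO (SE 0.24, adjusted p = 0.0012) and -0.55 in HSP90β-KO (SE 0.24, adjusted p = 0.079), and the knockouts differed by -0.42 (adjusted p = 0.13). With a library left out the difference between the knockouts ran from -0.63 to -0.29 (adjusted p 0.037 to 0.36). In HSP90β-KO the adjusted p ran from 0.064 to 0.2 with a library left out and from 0.026 to 0.14 over the other alternatives. The value in HSP90α-KO passed the fold threshold without EV replicate 1 (-1.03) and without HSP90α-KO replicate 1 (-1.18), the library with 18 reads, and by voom (-1.03). It shrank to -0.51 with 1 CPM added and to -0.17 with 5 CPM.

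In the resistance table TUBB1 had 102, 104 and 82 reads in parental cells and 76, 57 and 61 in PUHr, or log2 CPM of 2.14, 2.15 and 1.98 against 1.65, 1.30 and 1.49, with the groups apart. The log2 fold change was -0.61 (SE 0.14, adjusted p = 0.0016), and -0.52 without PUHr replicate 2, and the other alternatives ran from -0.66 to -0.25. TUBB1 overlaps ATP5F1E, a subunit gene of the mitochondrial ATP synthase, on the opposite strand. ATP5F1E held 2119 to 3223 reads per library in the knockout table and stood at -0.12 in HSP90α-KO (adjusted p = 0.0048), 0.09 in HSP90β-KO (adjusted p = 0.063) and 0.05 in PUHr (adjusted p = 0.2). The related tubulins were at 0.29 (TUBB2A) and -0.34 (TUBB2B) in HSP90α-KO and at 0.12 and 0.30 in PUHr.

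TFPI (ENSG00000003436, chromosome 2, 187464230 to 187565760, minus strand) had the most reads of the list. Its log2 CPM was 9.43, 9.33 and 9.40 in EV, 9.05, 9.08 and 9.17 in HSP90α-KO and 8.24, 8.27 and 8.24 in HSP90β-KO. The 3 groups did not overlap and stood in the order EV, HSP90α-KO, HSP90β-KO, at 669 ± 23.3, 549 ± 24.6 and 305 ± 3.76 CPM (SD, n = 3). In HSP90β-KO TFPI fell by 1.13 on the log2 scale (SE 0.032, adjusted p = 7.7e-20), and it was at -0.29 in HSP90α-KO (SE 0.032, adjusted p = 2.4e-08). The knockouts differed by 0.85 (adjusted p = 3.4e-18), with HSP90α-KO the higher. In the resistance table it stood at 8.61, 8.63 and 8.60 in parental cells and 8.74, 8.74 and 8.72 in PUHr, apart but close, with a log2 fold change of 0.12 (SE 0.021, adjusted p = 0.00024), and 0.12 without PUHr replicate 2.

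The position of TFPI shared its direction in HSP90β-KO. Of the 40 tested genes nearest to it, 20 on either side between 180692104 and 190649840 on chromosome 2, 32 were below 0. Of the 40, 25 were lower by the adjusted p alone, beside 17.2% of all tested genes, and 4 were changed downward, beside 2.65%. Their median log2 fold change was -0.50 beside 0.00 over all tested genes. The stretch was not even. On the side of higher coordinates every neighbour was below 0. On the other side, the genes before FSIP2-AS1 lay on both sides of 0, from -0.95 (ITGA4) to 0.31 (ENSG00000260742). The 4 changed neighbours were FSIP2-AS1 (-2.48), FSIP2 (-2.24), COL5A2 (-1.55) and SLC40A1 (-1.49), the only ones of the 40 with a lower value than TFPI. In HSP90α-KO the median of the same stretch was -0.03, and in PUHr the median of the 40 nearest tested genes was -0.01. The part of the position in the TFPI result was not tested.

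**Figure D3:**
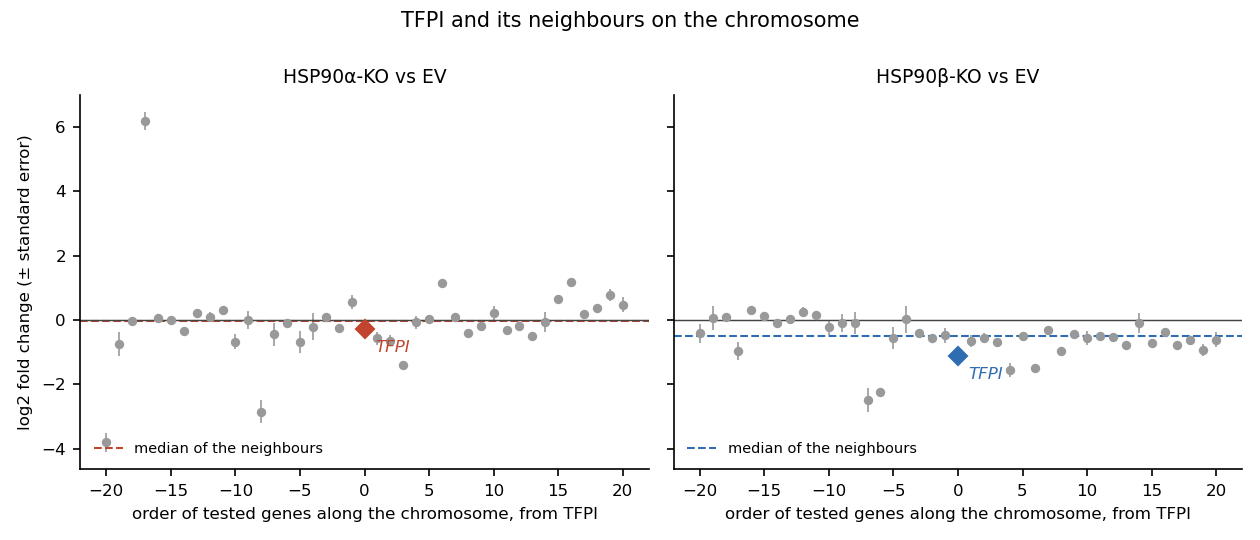
Log2 fold change with standard error of the 20 tested genes on either side of TFPI, in their order along the chromosome (grey), and of TFPI (coloured diamond), in HSP90α-KO and HSP90β-KO against EV. The dashed line is the median of the 40 neighbours, -0.03 in HSP90α-KO and -0.50 in HSP90β-KO.

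Around the other changed or lower members the medians were closer to 0. The median of the 40 nearest tested genes was -0.18 for NFE2 and -0.12 for TUBB1 in HSP90α-KO, and in that comparison 4 of the 40 lay below NFE2 and 0 below TUBB1. In PUHr the medians were 0.15 around NFE2, 0.02 around TUBB1, -0.11 around PPBP and 0.03 around VWF. CTSZ, a cathepsin gene next to TUBB1, was at -0.89 in HSP90α-KO (adjusted p = 2.5e-17).

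The genes whose log2 CPM followed a member most closely over the 9 libraries of the knockout table were sought among those averaging at least 1 in log2 CPM, as a description in which the points share 3 groups. For TFPI they were ACSL3 (Pearson r = 0.999), IDH1 (0.996) and RHBDD1 (0.995), all 3 also on chromosome 2, with log2 fold changes of -0.75, -0.82 and -0.66 in HSP90β-KO. For NFE2 they were MAPK13, GNAS and SERPINF1 (each 0.995), at -0.58, -0.45 and -0.78 in HSP90α-KO. For TUBB1 they were RNF44 (0.985), PI4KAP1 (0.985) and SLC25A23 (0.984), at -0.28, -0.28 and -0.18 in HSP90α-KO. The genes like TFPI lay outside the stretch of its 40 neighbours.

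RefSeq promoters, from 250 bases before to 50 after the start on GRCh38.p14, were found for 5 of the 9 members, GP1BB, GP9, PPBP, TUBB1 and TFPI. FLI1, NFE2, PF4 and VWF had no entry. They were searched on both strands for letters bound by the factors named above or by heat shock factors: AGATAA for GATA factors, GGAAGT for ETS factors, TGAGTCA for NF-E2 and GAANNTTC for heat shock factors. These occurred in 10.3%, 22.8%, 4.95% and 6.77% of 35116 promoters of the same length. The promoters of PPBP and TFPI are printed because these are a changed chemokine and a changed inhibitor of the list, 5′ to 3′ on the minus strand, PPBP from chr4:73988141-73988440 and TFPI from chr2:187554386-187554685, with matches in capitals.
PPBP: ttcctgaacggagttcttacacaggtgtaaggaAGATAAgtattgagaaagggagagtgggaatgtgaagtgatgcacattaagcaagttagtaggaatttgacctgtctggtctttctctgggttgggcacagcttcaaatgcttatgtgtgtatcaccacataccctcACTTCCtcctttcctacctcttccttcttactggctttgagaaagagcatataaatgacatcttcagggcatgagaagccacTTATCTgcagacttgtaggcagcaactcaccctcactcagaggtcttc
TFPI: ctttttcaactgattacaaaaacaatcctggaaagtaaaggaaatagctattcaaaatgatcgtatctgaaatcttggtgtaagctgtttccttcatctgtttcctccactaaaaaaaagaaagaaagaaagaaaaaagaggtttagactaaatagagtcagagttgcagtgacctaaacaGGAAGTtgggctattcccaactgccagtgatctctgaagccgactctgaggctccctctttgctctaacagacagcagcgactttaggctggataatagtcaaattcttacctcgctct
PPBP held AGATAA 217 bases before the start and its complement TTATCT 2 bases after it, and the ETS letters on the other strand (ACTTCC) 80 bases before it. TFPI held GGAAGT 69 bases before its RefSeq start, which lies inside the gene as annotated by GENCODE. GP9 held 1 ETS match, and GP1BB and TUBB1 held 0 matches to any of the 4 motifs. A match describes letters in a window and does not show binding.

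Around the 9 members, 87 other megakaryocyte genes were followed, of which 65 had an entry and 63 were tested in the knockout table and 71 of 87 were tested in the resistance table. In HSP90α-KO 9 of the 63 rose and 0 fell, 54 were not changed, and the median log2 fold change was 0.14 beside -0.01 over all tested genes. These compare with 907 genes that rose and 853 that fell of 17039 tested. By the adjusted p alone 30 were higher and 17 lower, beside 4692 and 4538 of all tested genes, so that the share of lower genes was near that of all. P2RX1 passed the filter only through HSP90α-KO, so its rise was built into its testing. It is counted in the 9 and among the receptors below. Rises among genes averaging at least 1 in log2 CPM included those of FYB1 (3.78), an adaptor of integrin activation, MYL9 (1.69), a myosin light chain, FERMT3 (1.35), the kindlin of platelets, and TBXAS1 (1.28), thromboxane synthase. FYB1 had 154, 157 and 214 reads in EV and 2146, 2019 and 2164 in HSP90α-KO, with no overlap. Also changed were the receptors P2RX1 (3.98) and F2RL3 (2.90), vinculin (VCL, 1.08) and RASGRP2 (1.03).

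By role, 3 of 12 cytoskeleton and proplatelet genes rose in HSP90α-KO, beside 5.32% of all tested genes, with a median of 0.37. By the adjusted p alone 10 of 12 were higher, beside 4692 of all 17039 tested genes. FLNA (-0.34, adjusted p = 6.3e-08) and TUBA4A (-0.49, adjusted p = 0.096) of this role lay below 0, as TUBB1 did. Receptors or adhesion molecules had 2 rises of 10 (median 0.02), granule content or secreted proteins 1 of 8 (-0.11), granule formation 0 of 5 (-0.16) and signalling or enzymes 3 of 13 (-0.02). Of 15 transcription factors 0 were changed (median 0.18). GATA1 was at 0.18 (adjusted p = 0.00085), RUNX1 at 0.24 (adjusted p = 1.6e-06), GFI1B at -0.17 (adjusted p = 0.014), the integrin ITGA2B at 0.09 (adjusted p = 0.34) and GP1BA at -0.39 (adjusted p = 0.02). By the adjusted p alone 7 of the 15 factors were higher and 4 lower, and the lower ones, as NFE2 was, were MECOM (-0.72, adjusted p = 1.6e-08), TAL1 (-0.40, adjusted p = 1.6e-09), MAFG and GFI1B.

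In HSP90β-KO 3 of the 63 rose, 3 fell and 57 were not changed, with a median of -0.01 beside 0.00 over all tested genes, and by the adjusted p alone 14 were higher and 20 lower. Of all 17039 tested genes 312 rose, 452 fell, 2938 were higher and 2926 lower by the same rules, a balance that depended on scaling (2134 and 3673 by the adjusted p with median centring). PDGFA passed the filter only through HSP90β-KO, so its rise was built into its testing. It is counted in the 3 rises and among the granule genes below. The rises were THBS1 (1.81), the granule protein thrombospondin 1 (31, 21 and 22 reads in EV, 90, 91 and 97 in HSP90β-KO), the ADP receptor P2RY1 (1.73) and PDGFA (1.14). The falls were LYST (-1.61), needed for granule biogenesis, PTGS1 (-1.29), the platelet cyclooxygenase, and CLU (-1.20). Granule content or secreted genes had 2 rises and 1 fall of 8 (median 0.13), receptors 1 rise of 10 (0.20), granule formation 1 fall of 5 (0.05), signalling or enzymes 1 fall of 13 (-0.09), and 0 of 12 cytoskeleton genes (0.03) and 0 of 15 factors (-0.12) were changed. GATA1 and GFI1B were both at -0.30 (adjusted p = 2.6e-06 and 0.00024), RUNX1 at -0.12 (adjusted p = 0.0085), ITGA2B at -0.45 (adjusted p = 5.7e-05) and GP1BA at -0.59 (adjusted p = 0.0016).

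Between the knockouts, 9 of the 63 were higher in HSP90α-KO and 3 were lower, with a median of 0.21 beside -0.01, and of all 17039 tested genes 1217 were higher and 949 lower. Of these list genes P2RX1 passed the filter only through HSP90α-KO and PDGFA only through HSP90β-KO, so their differences were built into their testing. Higher were FYB1 (3.19), MYL9 (1.79), LYST (1.71), CLU (1.24) and WAS (1.20), the Wiskott-Aldrich protein, among others, and THBS1 was lower (-1.24). ITGA2B differed by 0.54 (adjusted p = 1.5e-06), GATA1 by 0.47 (adjusted p = 2.1e-10), RUNX1 by 0.36 (adjusted p = 1.1e-09), GP1BA by 0.20 (adjusted p = 0.23) and GFI1B by 0.12 (adjusted p = 0.076). Of the 15 transcription factors 1 was changed, LMO2 (1.04, adjusted p = 9.9e-17). By role, receptors had 2 higher and 1 lower of 10 (median 0.15), granule content 1 and 2 of 8 (-0.41), granule formation 1 and 0 of 5 (-0.28), cytoskeleton 3 and 0 of 12 (0.43), signalling 1 and 0 of 13 (0.26) and factors 1 and 0 of 15 (0.12).

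In PUHr 5 of 71 other megakaryocyte genes rose and 15 fell, 51 were not changed, and the median was 0.02 beside 0.00 over all tested genes. By the adjusted p alone 27 were higher and 27 lower. Of all 16503 tested genes 886 rose, 774 fell, 4221 were higher and 4259 lower by the same rules (3514 and 5203 by the adjusted p with median centring). Among genes averaging at least 1 in log2 CPM the largest fall was that of SYK, the kinase behind the collagen and podoplanin receptors of platelets, with 951, 951 and 821 reads in parental cells and 13, 12 and 10 in PUHr, a log2 fold change of -6.11 (SE 0.11, adjusted p = 1e-14). PLCG2, the phospholipase of the same route, fell by 3.03 on the log2 scale, the serpin SERPINE2 by 3.19, P2RY1 by 2.88 and WAS by 2.50. SRGN, the granule proteoglycan, had 209, 212 and 188 reads in parental cells and 0 in all 3 PUHr libraries, at least 70-fold lower, and CD36 had 63, 66 and 61 against 0, at least 21.9-fold lower (bounds against 3 reads per library). Rises were CLU (2.88), with 31, 39 and 24 reads in parental cells and 239, 239 and 263 in PUHr, PDGFA (2.48), GP6, MPIG6B and RGS18.

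The collagen receptor GP6 had 3, 4 and 3 reads in parental cells and 15, 21 and 15 in PUHr (log2 fold change 1.79, adjusted p = 0.00011, read ratio 4.92 with an exact 95% counting interval of 2.47 to 10.9), and MPIG6B had 1, 0 and 1 against 16, 13 and 13 (read ratio 20.3, interval 5.27 to 173). Like VWF these rose from a few reads and passed the filter only through PUHr, as did RGS18, while SRGN, CD36, MYL9 and PDGFB passed only through parental cells. In these 3 rises and 4 falls a difference was built into the testing, so the counts of 5 and 15 are no result about the list. With the filter on the mean of all libraries 2 of 59 rose and 9 fell, beside 422 and 329 of 12275 tested genes. That mean can also be reached through the high group alone, so these counts are no result about the list either. SYK, for example, averaged 5.31 in log2 CPM in parental cells and -0.80 in PUHr, and CLU 0.51 and 3.39. ITGA2B, the platelet integrin chain, fell by 1.11 on the log2 scale (adjusted p = 1.7e-07), from 285, 289 and 245 reads to 155, 123 and 114, while its partner ITGB3 was at 0.89 (adjusted p = 0.00071) and GP1BA at 0.21 (adjusted p = 0.43). GP5 and PF4V1 were not tested, with 0 to 4 reads per library for GP5 and 0 for PF4V1. By role, receptors had 2 rises and 5 falls of 14 (median 0.23), granule content 2 and 3 of 11 (0.15), granule formation 0 and 1 of 5 (-0.23), cytoskeleton 0 and 3 of 12 (-0.08), signalling 1 and 3 of 14 (0.00) and transcription factors 0 of 15 (0.02). Over all tested genes 5.37% rose and 4.69% fell. GATA1 stood at -0.26 (adjusted p = 4.1e-06), RUNX1 at 0.27 (adjusted p = 1.1e-05) and GFI1B at 0.02 (adjusted p = 0.68).

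**Figure D4:**
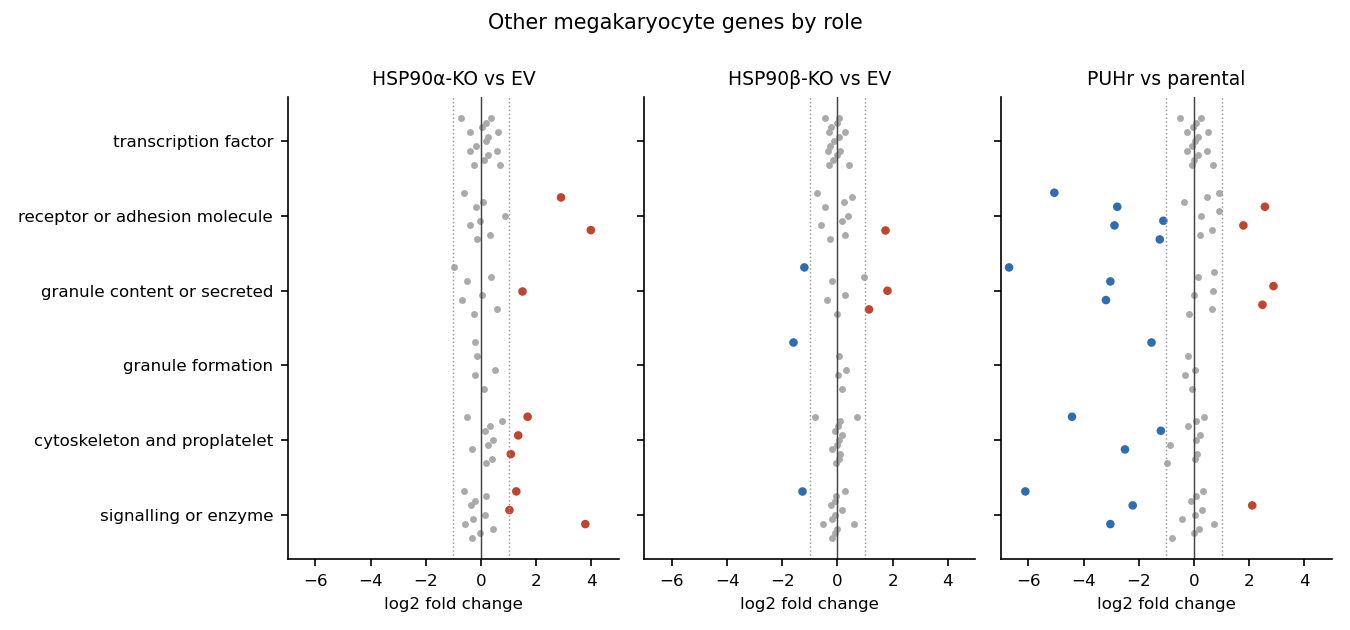
Log2 fold change of the other megakaryocyte genes (points) by role in 3 comparisons, with dotted lines at -1 and 1 and changed genes in red (higher) or blue (lower). Changed genes are 9 higher and 0 lower in HSP90α-KO, 3 and 3 in HSP90β-KO, and 5 and 15 in PUHr.

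TFPI blocks factor VIIa bound to tissue factor, and 8 genes of that pathway and of VWF processing were followed, of which 5 were tested in each table. Tissue factor itself (F3) was higher in all comparisons with a control, at 1.62 in HSP90α-KO (adjusted p = 0.00036), 1.32 in HSP90β-KO (adjusted p = 0.0045) and 1.55 in PUHr (adjusted p = 1.9e-06). Its reads were 1, 2 and 4 in EV, 13, 7 and 9 in HSP90α-KO and 7, 10 and 9 in HSP90β-KO. They were 41, 34 and 25 in parental cells and 122, 99 and 91 in PUHr. In each of the 3 comparisons the groups did not overlap. In the knockout table F3 passed the filter only through the knockouts, where it was higher, so its rise there was built into its testing. No other gene of the list was changed in these comparisons, while between the knockouts PROCR (-1.15) and THBD (-1.03) were lower in HSP90α-KO (list median -0.46).

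The protein C receptor PROCR was at -0.68 in HSP90α-KO (adjusted p = 2.2e-14), 0.46 in HSP90β-KO (adjusted p = 1.8e-10) and 0.44 in PUHr (adjusted p = 1.5e-07), and thrombomodulin (THBD) at -0.69 (adjusted p = 0.00013), 0.34 (adjusted p = 0.057) and 0.97 (adjusted p = 1.6e-05). The list median was 0.06 in HSP90α-KO, 0.46 in HSP90β-KO and 0.96 in PUHr, beside -0.01, 0.00 and 0.00 over all tested genes. In PUHr 5 of 5 were higher by the adjusted p alone, beside 4221 of 16503. ADAMTS13, which cleaves von Willebrand factor, was at 0.96 in PUHr (adjusted p = 0.0015), with 13, 16 and 16 reads in parental cells against 31, 34 and 31.

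Erythroid cells also express NFE2, and their markers were followed. In HSP90α-KO 4 of 14 fell (beside 5.01% of all tested genes), ALAS2 (-1.56), HBA2 (-1.33), HBG2 (-1.22) and HBZ (-1.04). Beside 5.32% of all tested genes 1 rose, SLC4A1 (1.21), which passed the filter only through HSP90α-KO, so its rise was built into its testing. By the adjusted p alone 4 were higher and 9 lower, beside 4692 and 4538 of all 17039 tested genes, with a median of -0.47. The summed level of the list was 1011, 1020 and 994 CPM in EV and 793, 792 and 795 in HSP90α-KO. In HSP90β-KO 0 of 14 were changed by limma, beside 1.83% of all tested genes upward and 2.65% downward. By the adjusted p alone 7 were lower, beside 17.2% of all tested genes. The median was -0.24 and the sum was 878, 891 and 867 CPM. In PUHr 4 of 16 fell, AHSP (-2.93), SLC4A1 (-2.80), HBB (-2.52) and HBA2 (-2.15), and 1 rose (ALAS2, 1.01), beside 4.69% and 5.37% of all tested genes. AHSP, HBB and SLC4A1 passed the filter only through parental cells, so their falls were built into their testing and the count of 4 is no result about the list. The list had 5 higher and 9 lower by the adjusted p alone, beside 4221 and 4259 of all 16503 tested genes. Its median was -0.40 and its sum was 3114, 3092 and 3069 CPM in parental cells and 2571, 2604 and 2503 in PUHr. TFRC was the most abundant gene of the list in each group, from 35% to 45.7% of its sum, and 0 of the 14 listed in the knockout table were at 0 reads in a whole group. The part of these markers in the NFE2 result was not tested.

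The summed level of the myeloid markers was 424, 424 and 427 CPM in EV, 505, 484 and 485 in HSP90α-KO and 296, 301 and 296 in HSP90β-KO. It was 160, 159 and 155 CPM in parental cells and 111, 110 and 109 in PUHr, and CD33 was the top gene in every group, from 39.4% to 55.3% of the sum. The lymphoid markers summed to 13.3, 15.6 and 14.9 CPM in EV, 8.59, 10.4 and 9.03 in HSP90α-KO, 21, 23.8 and 20.8 in HSP90β-KO, 13.4, 12.9 and 13.4 in parental cells and 10, 9.53 and 10.1 in PUHr. Of the 7 tested myeloid markers in HSP90α-KO 1 rose (PRTN3, which passed the filter only through HSP90α-KO, so that its rise was built into its testing) and 1 fell (CEBPA), in HSP90β-KO 1 fell (CSF3R), and in PUHr 0 of 5 were changed. Of the 4 tested lymphoid markers 1 fell in HSP90α-KO (CD3E), 1 rose in HSP90β-KO (CD3D) and 0 of 3 were changed in PUHr. Endothelial markers in the knockout table had 1 rise of 3 in HSP90α-KO (TIE1, 2, 2 and 17 reads in EV against 36, 56 and 48, which passed the filter only through HSP90α-KO) and 0 of 3 changed in HSP90β-KO. Over all tested genes the shares that rose and fell were 5.32% and 5.01% in HSP90α-KO, 1.83% and 2.65% in HSP90β-KO and 5.37% and 4.69% in PUHr, so 1 changed gene in such short lists is no result about them.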

How the data were processed

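RNA-seq of 15 K562 libraries was analysed from 2 tables. Alignment to GRCh38 (RNA STAR), counting (featureCounts) and normalization (edgeR) were done by the authors, whose deposited values are log2 CPM. Parental columns spelled DSMO were read as DMSO. On the linear scale 100% of the values were whole reads (tolerance 0.1) above a prior count of 1.98 and 2, so reads, CPM and depth were recovered. Entries without an identifier (30 and 114, 0.027% to 0.0363% of reads) were left out. Intervals and floors cover counting error only.

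Genes at or above -1 in 3 or more libraries were tested with limma 3.58.1 in R 4.3.3, with 1 fit per table, group means, contrasts, eBayes with an intensity trend and Benjamini-Hochberg adjustment over all tested genes. Changed means a log2 fold change beyond 1 with an adjusted p under 0.05. The steps were tested on simulated data. Positions come from GENCODE 44. Members, lists and rules were chosen with earlier results of these data known. Named by rule were the members, 10 set genes, up to 5 rises and falls per comparison averaging at least 1 in log2 CPM, overlapping genes, neighbours and like genes. Other names were added after their values were seen. Tables were made with Python 3.11.15.

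Alternatives were quantile, median and median-of-ratios scaling, pseudocounts of 0.1, 1 and 5 CPM, no filter or a mean filter, no trend, voom, adjusted p alone, treat, a replicate block, the 6 libraries compared alone and each library left out in turn. Replicate numbers do not pair: deviations from the group mean correlated by -0.048 to 0.045 at the same number and by -0.061 to 0.064 at other numbers.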

Additional observations from a re-analysis of the deposited data

Results flagged for a closer look

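The effects of the knockouts differed for NFE2 and TFPI by the test of the contrast between them, at adjusted p = 2e-12 and adjusted p = 3.4e-18. For NFE2 the log2 fold change in HSP90α-KO less that in HSP90β-KO was -0.54, with all 3 HSP90α-KO libraries below all 3 HSP90β-KO libraries. For TFPI the difference was 0.85, with all 3 HSP90α-KO libraries above all 3 HSP90β-KO libraries. TFPI lay in a stretch of chromosome 2 with a median of -0.50 in HSP90β-KO and -0.03 in HSP90α-KO.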

How the results depend on the processing

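No member fold change was reversed in 269 recomputed values, of which 261 were labelled the same, as were 220 of 264 counts. The balance of all genes did move with scaling. Changed genes in HSP90β-KO, 312 higher and 452 lower, were 371 and 370 with quantile normalization, and median centring took genes passing the adjusted p alone from 2938 higher and 2926 lower to 2134 and 3673. In PUHr it took them from 4221 and 4259 to 3514 and 5203. Members changed in HSP90α-KO numbered 0, with 1 by voom, 3 by the adjusted p alone and 0 to 1 with a library left out (1 without EV replicate 1 and 1 without HSP90alpha-KO replicate 1). In HSP90β-KO there was 1, 2 by the adjusted p alone, and between the knockouts 0, 2 by the adjusted p alone. In PUHr there were 2, with 0 at pseudocounts of 1 and 5 CPM, 1 with no filter, 0 with the mean filter (which leaves 3 members tested), 5 by the adjusted p alone and 1 by treat.

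Other megakaryocyte genes changed numbered 9 in HSP90α-KO (3 at 5 CPM, 47 by the adjusted p alone, 8 to 10 with a library left out), 6 in HSP90β-KO (3 at 1 CPM, 1 at 5 CPM, 34 by the adjusted p alone, 3 by treat, 4 to 8 with a library left out), 12 between the knockouts (5 at 5 CPM, 51 by the adjusted p alone, 6 by treat) and 20 in PUHr (8 at 5 CPM, 11 with the mean filter, 54 by the adjusted p alone). All changed genes numbered 1760 in HSP90α-KO (823 at 1 CPM, 346 at 5 CPM, 717 with the mean filter, 9230 by the adjusted p alone, 824 by treat), 764 in HSP90β-KO (289, 90, 272, 5864 and 271), 2166 between the knockouts (1162, 507, 933, 10201 and 1176) and 1660 in PUHr (941, 385, 751, 8480 and 961). With the replicate block the members changed were 0, 1, 0 and 2 and all genes 1759, 763, 2165 and 1662.

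A larger pseudocount shrinks differences of genes with few reads, so neither PPBP nor VWF was called with 1 CPM added, and PPBP was not called without the filter either (adjusted p = 0.093). Differences of GP9 and PF4, with 0 or 1 read per library in the resistance table, were not detectable. Nor were those of FLI1 in the knockout table, with 0 to 2 reads. In the resistance table FLI1 differed near the floor (4, 3 and 4 reads in parental cells, 1, 0 and 0 in PUHr) and was not tested. GP1BB overlaps other genes on its strand. The clones per group are unknown.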
